A study of Mus musculus with 2 samples.

Results

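Cholesterol synthesis and its control by SREBP were described through 29 genes, which were found by name among 43346 Ensembl gene rows in 2 RNA-seq libraries of the mouse adrenal gland. The genes were listed by pathway membership and not by their measured values: 21 encode enzymes from acetyl-CoA to cholesterol, 7 encode the SREBP transcription factors and the proteins that control them, and Mylip encodes a ubiquitin ligase that sends lipoprotein receptors for degradation. All 29 were found and all 29 carried reads in replicate 2. Both libraries were made from poly(A) RNA of 1 biological sample. The labels give the animal as a female C57BL/6J mouse, adult, at 10 weeks of age, and the RNA was purified with a kit meant for fatty tissue. The libraries are labelled technical replicates, and replicate 2 was added later than replicate 1, in May 2015. There is no treated or mutant group, so every difference below is between 2 libraries of the same sample, every SD over n = 2 is technical, and library and date cannot be told apart.

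The adrenal cortex turns cholesterol into steroid hormones, and it can make cholesterol itself or take it up from lipoproteins and stored esters. Synthesis runs from acetyl-CoA through HMG-CoA, mevalonate and isoprenoid diphosphates to squalene, which is closed to lanosterol and trimmed to cholesterol. SREBP proteins are held in the endoplasmic reticulum by SCAP and INSIG when sterols are plentiful. When sterols fall, SCAP carries them to the Golgi, where the site-1 and site-2 proteases release the active factor, and the factor binds sterol regulatory elements at the genes of the pathway, often beside sites for NF-Y (CCAAT boxes) and Sp1 (GC boxes).

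The promoter windows of the genes are shown first, as the place where matches to the elements named above were looked for. RefSeq windows on GRCm38.p6, from 250 bases before to 50 bases after a start site, were at hand for 25 of the 29 genes, as 33 windows; Acat1, Fdps, Fdft1 and Sqle had none in the table used. Each window was searched on both strands for TCACNCCAC (a sterol regulatory element), CACGTG (an E-box, which SREBP can also bind), CCAAT and GGGCGG, and overlaps between motifs were allowed. Hmgcs1, the HMG-CoA synthase of the cytosol, was the one gene of the 25 with a TCACNCCAC match, at -137 from its start site. That is 4% of the genes against 1.44% of 27025 genes with a window. Its window at chr13:119690101-119690400, plus strand, is printed with that match in capitals. Insig1, an anchor of SCAP and itself an SREBP target, is shown at chr5:28071162-28071461, plus strand, with its E-box in capitals. Srebf1 has windows at separate starts: the one at chr11:60210422-60210721, minus strand, is that of the short SREBP-1c form, with its CCAAT match in capitals, and the one at chr11:60220578-60220877, minus strand, lies over the start of the long SREBP-1a form, with its GC boxes in capitals. Mvk, mevalonate kinase, is shown at chr5:114444019-114444318, plus strand, for its 5 CCAAT matches, which are in capitals.
Hmgcs1: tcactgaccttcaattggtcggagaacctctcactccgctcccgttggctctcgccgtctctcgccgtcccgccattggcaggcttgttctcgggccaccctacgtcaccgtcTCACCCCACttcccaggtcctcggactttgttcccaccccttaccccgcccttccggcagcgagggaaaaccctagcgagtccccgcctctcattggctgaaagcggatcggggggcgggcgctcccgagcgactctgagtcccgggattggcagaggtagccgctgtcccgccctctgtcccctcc
Insig1: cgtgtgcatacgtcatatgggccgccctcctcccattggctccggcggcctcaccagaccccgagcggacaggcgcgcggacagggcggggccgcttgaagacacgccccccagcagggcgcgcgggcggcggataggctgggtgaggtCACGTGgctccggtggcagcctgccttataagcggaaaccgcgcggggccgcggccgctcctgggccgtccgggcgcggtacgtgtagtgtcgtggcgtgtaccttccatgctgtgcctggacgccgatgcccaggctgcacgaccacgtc
Srebf1, SREBP-1c start: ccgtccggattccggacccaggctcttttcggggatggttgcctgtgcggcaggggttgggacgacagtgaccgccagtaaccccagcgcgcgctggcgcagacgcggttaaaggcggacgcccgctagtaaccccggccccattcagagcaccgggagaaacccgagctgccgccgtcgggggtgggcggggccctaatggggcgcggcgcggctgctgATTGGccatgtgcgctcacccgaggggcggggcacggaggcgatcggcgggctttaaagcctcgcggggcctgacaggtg
Srebf1, SREBP-1a start: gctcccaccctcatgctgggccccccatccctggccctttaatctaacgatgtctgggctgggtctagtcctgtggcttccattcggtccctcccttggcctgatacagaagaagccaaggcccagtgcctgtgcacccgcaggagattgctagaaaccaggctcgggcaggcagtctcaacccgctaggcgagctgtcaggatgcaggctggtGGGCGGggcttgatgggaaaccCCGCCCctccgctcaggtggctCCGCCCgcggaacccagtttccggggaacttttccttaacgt
Mvk: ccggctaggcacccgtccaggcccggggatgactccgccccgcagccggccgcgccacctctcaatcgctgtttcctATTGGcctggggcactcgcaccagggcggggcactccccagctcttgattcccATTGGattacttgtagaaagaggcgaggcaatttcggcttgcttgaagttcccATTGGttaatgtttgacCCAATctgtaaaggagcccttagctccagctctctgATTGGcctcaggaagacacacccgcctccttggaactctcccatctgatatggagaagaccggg

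CCAAT and GGGCGG were present in most of the genes. CCAAT was found in 21 of the 25 genes (84%), against 41.1% of all 27025 genes and 42.3% of 17492 protein-coding genes. GGGCGG was found in 22 of 25 (88%), against 38.2% of all genes and 49.2% of protein-coding genes. CACGTG was found in 5 of 25 (20%), in Hsd17b7, Sc5d, Dhcr7, Scap and Insig1, against 8.09% of all genes and 8.91% of protein-coding genes. The members' windows were also richer in G and C, with a median of 62.3% against 52.7% over all 32851 windows, and what part base composition has in these shares was not tested. A match is only a run of letters, and its absence from a window says nothing of binding elsewhere.

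**Figure D1:**
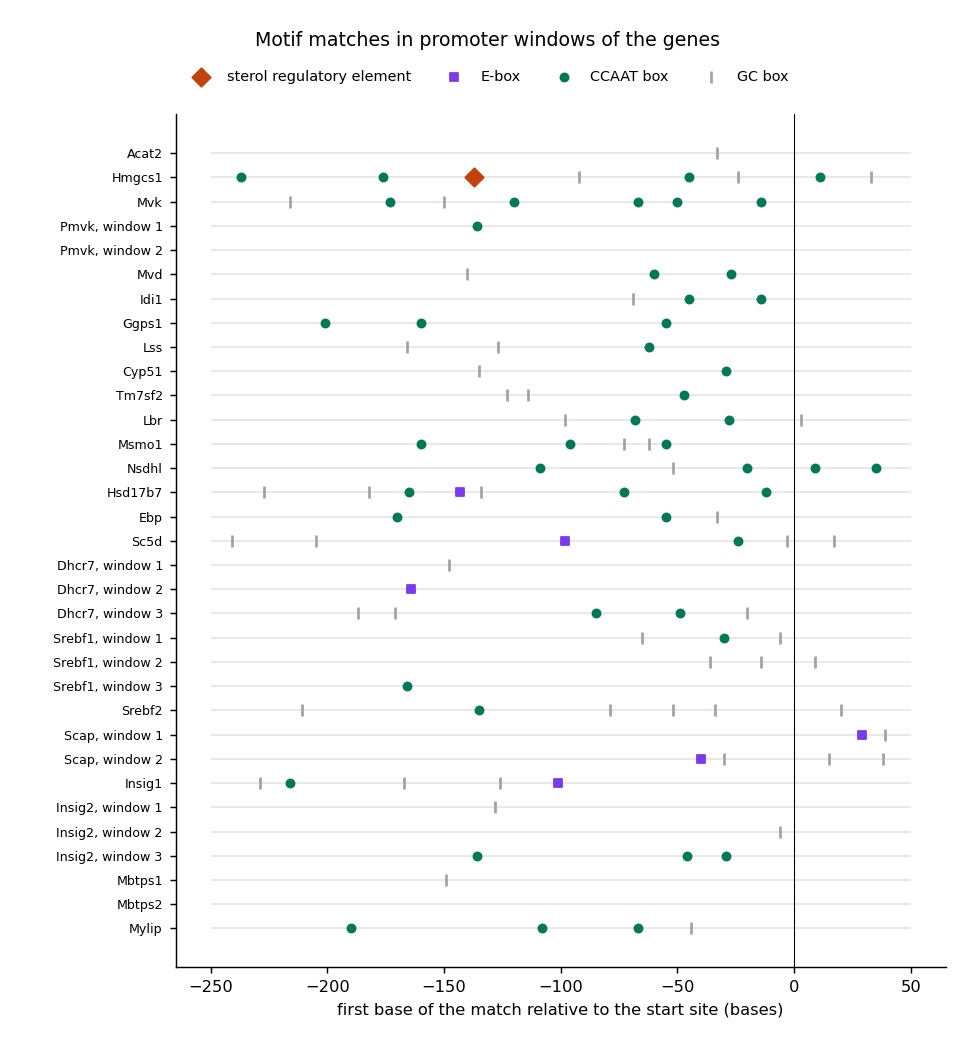
Position of motif matches in the 33 promoter windows of 25 genes. The horizontal axis is the distance in bases of the match's first base from the start site, each grey line is 1 window, and symbols mark the sterol regulatory element, E-box, CCAAT box and GC box. Hmgcs1 holds the only sterol regulatory element match, at -137, while CCAAT boxes appear in 21 genes.

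The deposited tables give expected counts, which are estimated fragments per gene, and TPM, which is a level per length with the same sum in each library. Replicate 2 held 17376660 counts and replicate 1 held 28267651, of which 10.6% in replicate 2 and 40.1% in replicate 1 came from mitochondrial genes. Levels are therefore also given as nuclear TPM, which is TPM rescaled to its full sum without the mitochondrial genes and 15 near-identical nuclear copies of them. On that scale the 29 genes summed to 2514 in replicate 2 and 2576 in replicate 1. Their median was 47.7 nuclear TPM in replicate 2 and 40.1 in replicate 1, and the median of the 29 means was 48.4, against 20.045 over 14293 nuclear genes with a mean of at least 1. The 21 enzymes alone summed to 1974 in replicate 2 and 2173 in replicate 1.

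All 29 genes reached a deposited TPM of at least 1 in replicate 2, and 22 of them did in replicate 1. The 7 below it in replicate 1 were Mvk, Pmvk, Mvd, Tm7sf2, Srebf1, Srebf2 and Scap. Across the 29 genes, Spearman's rho between nuclear TPM in replicate 2 and in replicate 1 was 0.47, a description over genes that share both libraries. The highest mean levels were those of Hmgcs1 (364 ± 233 nuclear TPM), Msmo1 (337 ± 187) and Dhcr7 (322 ± 315) (SD, n = 2 libraries each), and their spreads overlap, so their order is not resolved. The lowest means were those of Mvd (9.22 ± 13.0) and Mylip (10.6 ± 1.67).

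**Figure D2:**
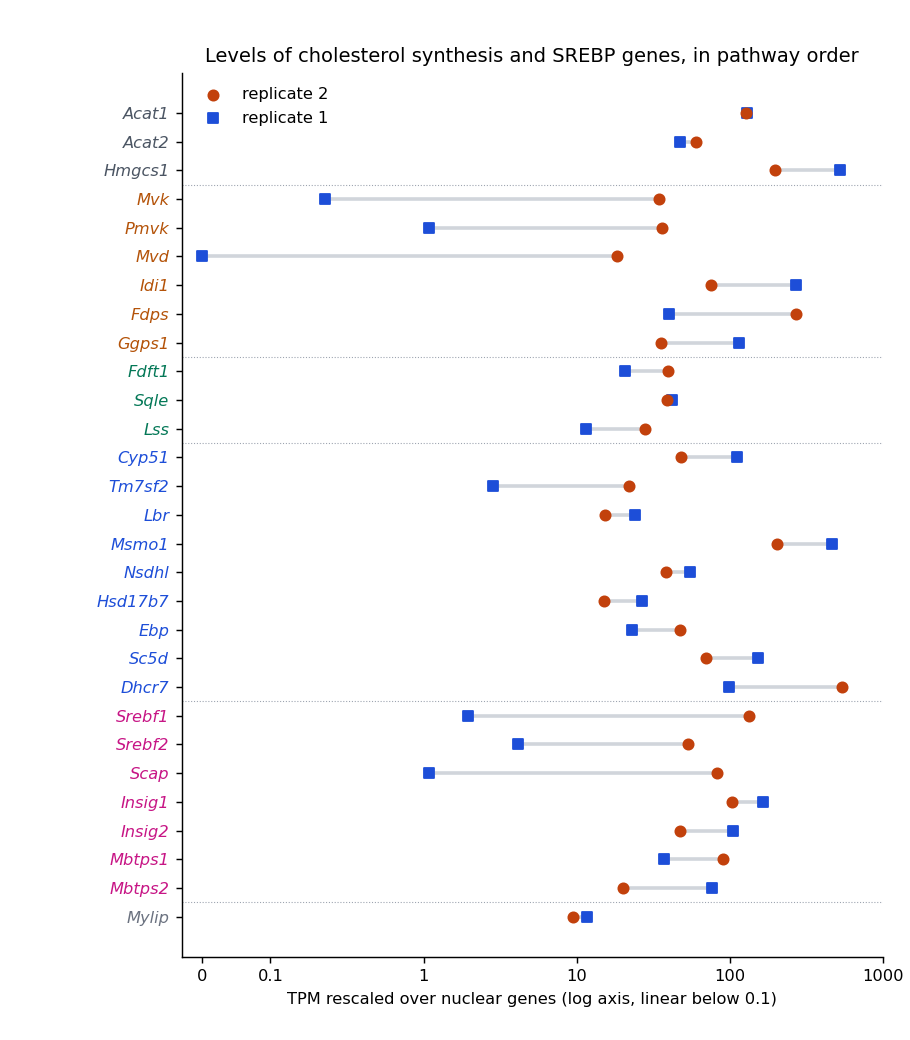
Nuclear TPM of each gene in replicate 2 (circles) and replicate 1 (squares), on a log axis that is linear below 0.1, in pathway order, with dotted lines between groups of steps. Acat1 and Sqle lie at nearly the same level in both libraries, while Mvk, Pmvk, Mvd, Srebf1 and Scap lie far lower in replicate 1, with Mvd at 0.

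Each gene was compared between the libraries on its rounded counts with a two-sided exact binomial test, adjusted by Benjamini-Hochberg over 14358 genes with at least 20 counts in both libraries together. Library sizes were scaled by TMM, and a gene was called at an adjusted p under 0.05 and at least 2-fold. By this rule 11 of the 29 genes were higher in replicate 2, 7 were lower and 11 were not called. Scaling by total counts gave 15 higher and 1 lower, and scaling by nuclear totals 12 higher and 4 lower, while these scalings put the median log2 ratio of all genes at 1.24 with total counts and 0.39 with nuclear totals, against 0.10 with TMM. The same rule called 36.4% of all tested genes higher and 27.8% lower, so the members' counts, 11 and 7 of 29, stand near that background. The members' median log2 ratio of replicate 2 over replicate 1 was -0.07, against 0.10 over all tested genes. Because the ratio followed GC content over all genes, the call with the smooth GC trend removed is given as well. It left 9 genes higher, 0 lower and 20 not called, against 14.7% higher and 10.6% lower among all genes. Of the 11 higher calls, 8 were kept, and none of the 7 lower calls was kept. The test compares 2 libraries and cannot speak for other animals, and its intervals cover counting error only.

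At the first step, Acat1, a mitochondrial acetoacetyl-CoA thiolase, had 2869 counts (127 nuclear TPM) in replicate 2 and 2235 counts (130 nuclear TPM) in replicate 1. Acat2, the cytosolic thiolase that feeds sterol synthesis, had 957 counts (60.7 nuclear TPM) in replicate 2 and 564 counts (47.2 nuclear TPM) in replicate 1. Neither was called. Hmgcs1, which makes HMG-CoA, at chr13:119690379-119708260, had 4665 counts (199 nuclear TPM) in replicate 2 and 9343 counts (528 nuclear TPM) in replicate 1. It was lower in replicate 2, at 0.370 times (95% exact interval 0.357 to 0.383). With the GC trend removed its log2 ratio of -1.44 became 0.04 and the call ended, while Acat1 passed the rule at 1.07. Part of the Acat2 reads cannot be placed with certainty, because its transcript is 97.7% identical to that of Acat3, which held 26.1 counts in replicate 2 and 12.6 in replicate 1.

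All 6 genes of the steps from mevalonate to prenyl diphosphates were called, 4 of them higher in replicate 2 and 2 lower, against 36.4% and 27.8% of all tested genes. Of these 6, 3 have at least 55% GC and 2 have under 45%, classes in which 91.6% of all genes were higher and 85.5% lower. The 2 kinases and the decarboxylase that act in a row after mevalonate had almost no reads in replicate 1. Mvk, mevalonate kinase, had 360 counts (34.8 nuclear TPM) in replicate 2 and 1 counts (0.23 nuclear TPM) in replicate 1 (adjusted p = 2.66e-84, exact binomial test), and lies at chr5:114444269-114460591 on GRCm38 (mm10). Pmvk, phosphomevalonate kinase, had 280 counts (36.3 nuclear TPM) in replicate 2 and 6 counts (1.09 nuclear TPM) in replicate 1 (adjusted p = 1.09e-57, exact binomial test), and lies at chr3:89454541-89469013. Mvd, which decarboxylates mevalonate diphosphate and lies at chr8:122433601-122443422, had 223 counts in replicate 2 and 0 in replicate 1. Against a floor of 3 counts in replicate 1, Mvd was 55.05-fold higher in replicate 2, a value that leaves out counting error. The lower limit of the exact 95% interval of its ratio was 44.4. All of them lay below 2 nuclear TPM in replicate 1 and above 18 in replicate 2.

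Idi1, the isopentenyl diphosphate isomerase, ran the other way, with 1649 counts (76.0 nuclear TPM) in replicate 2 and 4363 counts (271 nuclear TPM) in replicate 1. Fdps, farnesyl diphosphate synthase at chr3:89093588-89101959, had 2207 counts (273 nuclear TPM) in replicate 2 and 245 counts (40.1 nuclear TPM) in replicate 1, and was 6.66-fold higher in replicate 2 (95% exact interval 5.84 to 7.64). Ggps1, which makes geranylgeranyl diphosphate for protein prenylation, had 593 counts (35.4 nuclear TPM) in replicate 2 and 1457 counts (115 nuclear TPM) in replicate 1. Idi1 and Ggps1 were lower in replicate 2, at 0.280 and 0.302 times, and Fdps alone of these was higher. With the GC trend removed, Mvk, Pmvk, Mvd and Fdps kept their calls at log2 ratios of 3.61, 2.53, 4.17 and 1.82, and Idi1 (0.02) and Ggps1 (0.27) lost theirs. Fdps has processed pseudogenes over 96% identical to it, of which Gm3571 held 6.51 counts in replicate 2 and 0 in replicate 1. Gm43738, a protein-coding gene on chromosome 3, matches Fdps at 100% over 751 bases, and its counts were not analysed here.

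None of the genes that make squalene and lanosterol was called. Fdft1, squalene synthase, had 812 counts (39.5 nuclear TPM) in replicate 2 and 324 counts (20.9 nuclear TPM) in replicate 1, a ratio of 1.85 (95% exact interval 1.63 to 2.12), short of the 2-fold minimum. Sqle, squalene epoxidase, had 768 counts (38.8 nuclear TPM) in replicate 2 and 631 counts (42.1 nuclear TPM) in replicate 1, so the libraries gave nearly the same level. Lss, lanosterol synthase, had 812 counts (28.1 nuclear TPM) in replicate 2 and 451 counts (11.5 nuclear TPM) in replicate 1. The transcripts behind the Lss total differed between the libraries.

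From lanosterol to cholesterol, 3 of 9 genes were higher in replicate 2, 3 were lower and 3 were not called. Among all tested genes 36.4% were higher and 27.8% lower, so these counts stand near that background. Cyp51, the lanosterol demethylase, had 1384 counts (48.1 nuclear TPM) in replicate 2 and 2444 counts (112 nuclear TPM) in replicate 1. Msmo1, the sterol methyl oxidase, had 2783 counts (205 nuclear TPM) in replicate 2 and 4913 counts (469 nuclear TPM) in replicate 1. Sc5d, the sterol desaturase, had 1078 counts (69.6 nuclear TPM) in replicate 2 and 1786 counts (154 nuclear TPM) in replicate 1. All of these were lower in replicate 2, at 0.419, 0.420 and 0.447 times, and none was called with the GC trend removed (log2 ratios of -0.16, 0.11 and 0.22).

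Dhcr7, the reductase that turns dehydrocholesterol into cholesterol, at chr7:143823145-143848410, stood out on the other side, with 8914 counts (545 nuclear TPM) in replicate 2 and 1271 counts (98.7 nuclear TPM) in replicate 1. In replicate 2 it ranked 279 among nuclear genes by level, the highest of the 29, and in replicate 1 it ranked 2137. It was 5.19-fold higher in replicate 2 (95% exact interval 4.90 to 5.51). Ebp, the sterol isomerase, had 551 counts (47.7 nuclear TPM) in replicate 2 and 149 counts (23.0 nuclear TPM) in replicate 1, 2.73-fold higher in replicate 2. Tm7sf2, a sterol reductase, had 196 counts (22.0 nuclear TPM) in replicate 2 and 12 counts (2.86 nuclear TPM) in replicate 1. With the GC trend removed Dhcr7 (log2 ratio 1.30) and Ebp (1.61) kept their calls and Tm7sf2 (0.63) lost its call. With the length trend removed instead, Ebp went to 0.55 and lost its call.

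The uncalled genes of this stretch had log2 ratios between -0.84 and -0.56. Lbr, the lamin B receptor and the other reductase for the step of Tm7sf2, had 330 counts (15.4 nuclear TPM) in replicate 2 and 371 counts (23.95 nuclear TPM) in replicate 1. Nsdhl, a sterol dehydrogenase, had 584 counts (38.4 nuclear TPM) in replicate 2 and 637 counts (55.4 nuclear TPM) in replicate 1. Hsd17b7, the keto-sterol reductase that acts beside it, had 514 counts (15.1 nuclear TPM) in replicate 2 and 683 counts (26.6 nuclear TPM) in replicate 1. Their log2 ratios of -0.60, -0.56 and -0.84 became 0.50, 0.52 and 0.07 without the GC trend.

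Among the regulators, 4 of 7 were higher in replicate 2 and 1 was lower, against 36.4% and 27.8% of all tested genes. Srebf1, Srebf2 and Scap have at least 55% GC, a class in which 91.6% of all genes were higher. Srebf1, the SREBP that favours fatty acid genes, at chr11:60199089-60222581, had 3610 counts (133 nuclear TPM) in replicate 2 and 24 counts (1.94 nuclear TPM) in replicate 1, 109-fold higher in replicate 2 (95% exact interval 74.7 to 174.1). Srebf2, the SREBP that favours cholesterol genes, had 1981 counts (53.7 nuclear TPM) in replicate 2 and 117 counts (4.17 nuclear TPM) in replicate 1, 12.5-fold higher. Scap, the sterol sensor that escorts SREBP, at chr9:110333288-110384950, had 2591 counts (82.4 nuclear TPM) in replicate 2 and 26 counts (1.09 nuclear TPM) in replicate 1, 72.4-fold higher. Both SREBP genes and their escort were thus read mostly in replicate 2, the direction of most genes of that GC class. With the GC trend removed Srebf1 (log2 ratio 2.54) and Scap (2.05) stayed called, while Srebf2 went to 0.02.

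The INSIG anchors and the proteases differed less. Insig1 had 2006 counts (104 nuclear TPM) in replicate 2 and 2402 counts (165 nuclear TPM) in replicate 1. Insig2, its partner gene, had 904 counts (47.1 nuclear TPM) in replicate 2 and 1117 counts (106 nuclear TPM) in replicate 1. Neither was called. Mbtps1, the site-1 protease, had 2800 counts (90.1 nuclear TPM) in replicate 2 and 873 counts (37.3 nuclear TPM) in replicate 1, and was 2.37-fold higher in replicate 2. Mbtps2, the site-2 protease, had 590 counts (20.2 nuclear TPM) in replicate 2 and 2016 counts (76.5 nuclear TPM) in replicate 1, and was 0.217 times. The proteases therefore lay in opposite orders, and neither was called with the GC trend removed (log2 ratios of 0.24 and -0.48). Mylip had 208 counts (9.41 nuclear TPM) in replicate 2 and 197 counts (11.8 nuclear TPM) in replicate 1, and was not called.

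Most genes lay along the trend of the library ratio with the GC content of transcripts. Ebp (49.2% GC), at a log2 ratio of 1.45, stood above the genes next to it in GC content, and Mylip (49.6% GC), at -0.36, below them. With that trend removed and ratios recentred on the all-gene median, 9 genes were called higher, Ebp among them and Mylip not. All 7 genes of at least 55% GC (Mvd, Srebf1, Srebf2, Tm7sf2, Pmvk, Scap and Mvk) were called higher in replicate 2, as were 91.6% of 3312 genes of that class. All 6 genes under 45% GC (Ggps1, Msmo1, Sc5d, Mbtps2, Idi1 and Hmgcs1) were called lower, as were 85.5% of 3296 genes of that class. Between 45% and 50% GC, 1 of 10 was higher (Ebp) and 1 lower (Cyp51), against 4.43% and 26.4% of all genes in the class. Between 50% and 55%, 3 of 6 were higher (Mbtps1, Dhcr7 and Fdps) and 0 lower, against 52.04% and 2.73%. Spearman's rho between GC content and log2 ratio was 0.95 over the 29 genes and 0.89 over 14317 genes, as a description of these libraries. Whether base composition itself or something that goes with it sets the ratio was not tested.

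**Figure D3:**
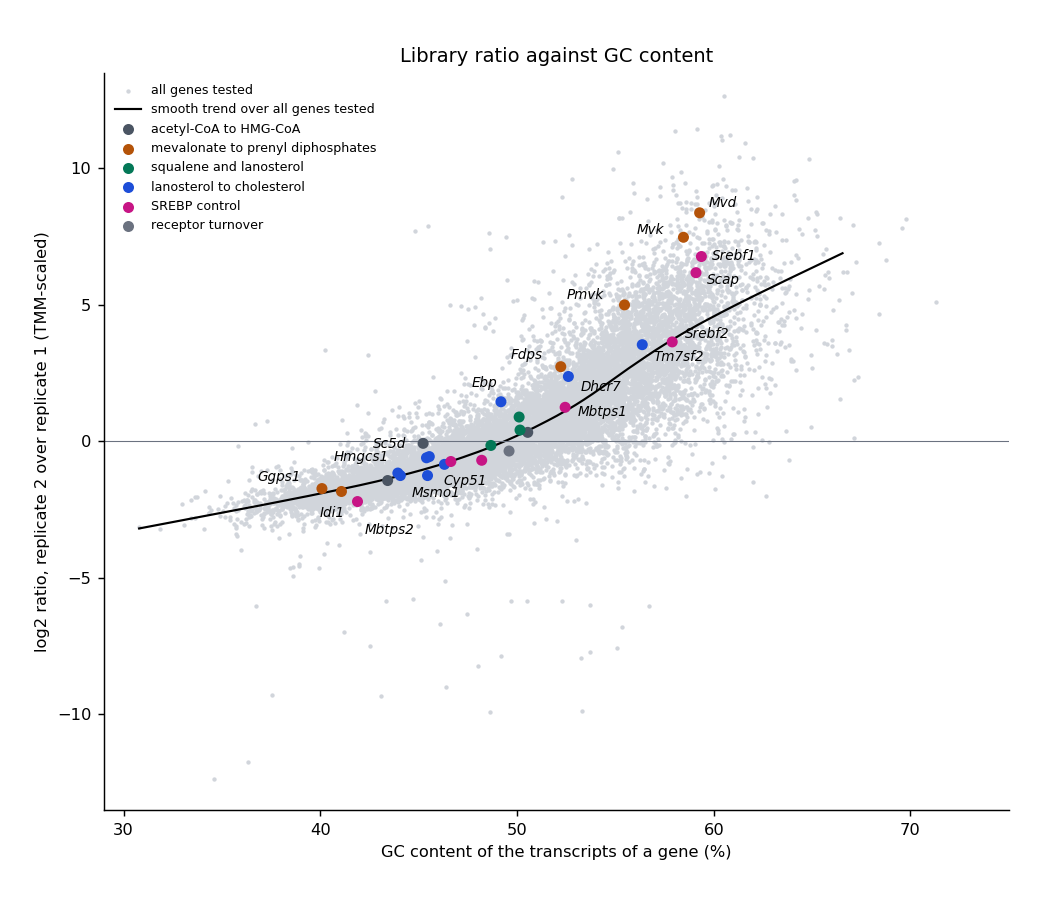
Log2 ratio of replicate 2 over replicate 1 (TMM-scaled counts, prior count 0.5) against transcript GC content in percent for all tested genes (grey) and the 29 genes (coloured by group), with the smooth trend over all genes as a line. The genes under 45% GC lie below 0 and those of 55% and over lie above 3, along the grey cloud.

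With the trend removed, 9 of the 29 genes were called higher, against 14.7% of all tested genes, and 0 were called lower, against 10.6%. The 9 were Mvd, Mvk, Srebf1, Pmvk, Scap, Fdps, Ebp, Dhcr7 and Acat1, with log2 ratios between 1.07 and 4.17 after its removal. Of these, 8 kept an earlier call, while Acat1 was called only after removal of the trend, from a log2 ratio of -0.07. For Mvd, Mvk, Pmvk, Srebf1 and Scap the value rests on at most 26 counts in replicate 1. The log2 ratio of Mvd, with 0 counts there, also depends on the prior count and is no bound. Acat1, Fdps, Ebp and Dhcr7 had 149 to 2235 counts there. Their log2 ratios after removal of the trend were 1.07, 1.82, 1.61 and 1.30. Of the 9, 7 are among the 21 enzymes listed in the 29 genes, and the others are Srebf1 and Scap.

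**Figure D4:**
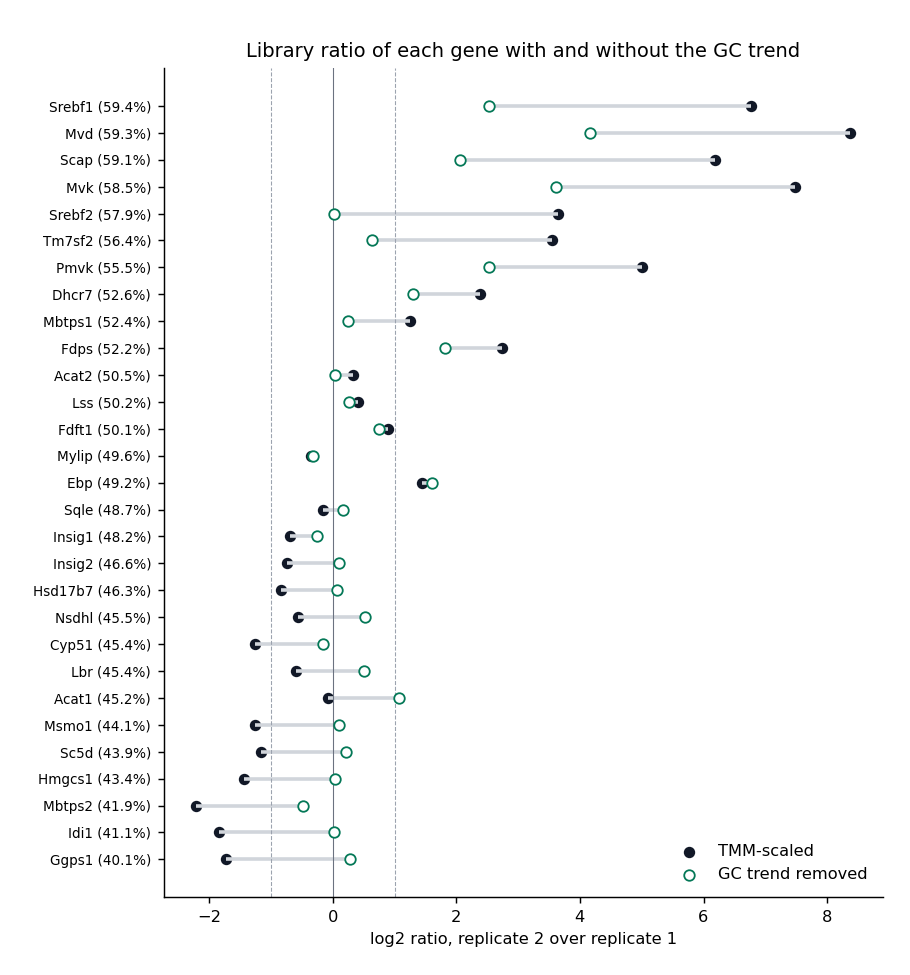
Log2 ratio of replicate 2 over replicate 1 for each gene, TMM-scaled (filled) and with the GC trend removed (open), ordered by GC content, which is given in percent beside each name with the richest at the top. Dashed lines mark 2-fold; none of the genes is below the lower line once the trend is removed, and 9 lie above the upper line.

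Ratios of genes that do related work were read within each library. Acat2 stood at 0.477 of the Acat1 TPM in replicate 2 and 0.362 in replicate 1, which averaged -1.27 ± 0.28 on the log2 scale (SD, n = 2). Insig1 stood at 2.21 times Insig2 in replicate 2 and 1.56 times in replicate 1, 0.89 ± 0.35. In these pairs the order was the same in both libraries. Of the Insig2 TPM, the retained-intron transcript Insig2-206 was assigned 29.1% in replicate 1, on 26.55 counts, and 0% in replicate 2. Srebf2 stood at 0.403 of Srebf1 in replicate 2 and 2.15 times in replicate 1, -0.11 ± 1.71. Mbtps1 stood at 4.47 times Mbtps2 in replicate 2 and 0.487 in replicate 1, 0.56 ± 2.26. Lbr stood at 0.697 of Tm7sf2 in replicate 2 and 8.38 times in replicate 1, 1.27 ± 2.54. In these 3 pairs the order turned between the libraries, so which gene of the pair leads in this gland is not resolved.

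The deposited transcript tables held 132 transcripts of the 29 genes. The same transcript led in both libraries for 21 genes, another one led for 7 (Mvk, Pmvk, Lss, Tm7sf2, Lbr, Ebp and Srebf1), and Mvd had no counts in replicate 1 to compare. In Lss the coding transcript Lss-201 led in replicate 2 with 46.6% of the gene, against 0 counts in replicate 1. The retained-intron transcript Lss-204 held 19.6% in replicate 2 and 98.4% in replicate 1. By counts, retained-intron transcripts took 43.3% of Lss in replicate 2 (95% exact interval 39.9 to 46.8) and 100% of its 451 counts in replicate 1 (99.2 to 100). By expected counts the replicate 1 level of Lss therefore holds no read assigned to its coding transcripts. The exact intervals of retained-intron shares leave out the uncertainty of assigning reads to transcripts. By the deposited posterior mean, Lss-204 held 72.1% in replicate 1, and the coding Lss-208 and Lss-201 held 8.64% and 0.42%.

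Lbr and Ebp showed the same turn to a smaller degree. Lbr-201, which is coding, led in replicate 2 with 75.3%, against 17.7% in replicate 1, where the retained-intron Lbr-203 held 82.3%. Ebp-201, which is coding, held 92.9% in replicate 2 and 38.9% in replicate 1, where the retained-intron Ebp-202 led with 59.5%. Over all 29 genes, retained-intron transcripts took 1.03% of the counts in replicate 2 (95% exact interval 0.942 to 1.13) and 2.41% in replicate 1 (2.26 to 2.56). Over all nuclear genes they took 1.35% in replicate 2 and 2.24% in replicate 1, so a larger share in replicate 1 was not particular to the pathway. The other changes of leader rest on few reads: in replicate 1 Mvk had 1 count, Pmvk 6, Tm7sf2 12 and Srebf1 24.

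Srebf1 makes SREBP-1a and SREBP-1c from different first exons. In replicate 2 the transcript with the long coding start, Srebf1-201 (SREBP-1a, 1134 coded residues), had 2423 counts and 57.5% of the gene. Srebf1-207, which starts further downstream with a first coding exon of 19 bases (SREBP-1c), had 872 counts and 28.5%. Both had 0 counts in replicate 1, where 21.01 of the 24 counts went to Srebf1-203. In replicate 2, then, Srebf1-201 was assigned more reads than Srebf1-207, and no second library can be set beside it. The deposited transcripts also differ in length, at 4299 bases for Srebf1-201 and 3177 for Srebf1-207, which codes 1022 residues. Their read counts therefore do not settle which of the 1a and 1c forms is more abundant. The 12 deposited transcripts share most exons, so the shares are estimates.

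**Figure D5:**
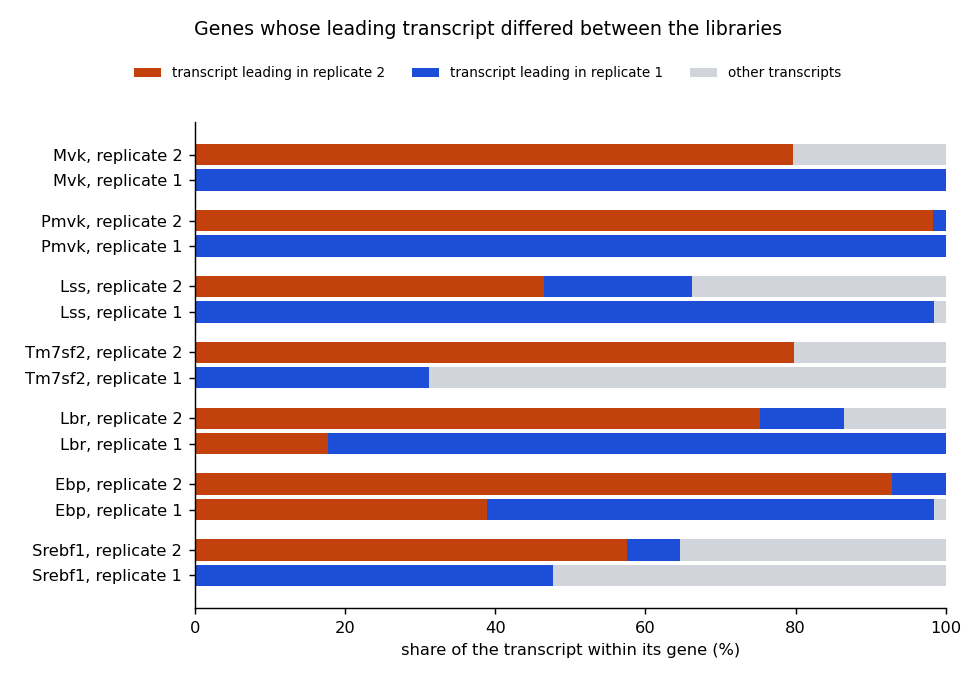
Share in percent of each gene taken by the transcript that leads in replicate 2, the transcript that leads in replicate 1 and all others, for the 7 genes whose leader differed, with replicate 2 above replicate 1. Lss turns from a mixture led by Lss-201 in replicate 2 to 98.4% of the retained-intron Lss-204 in replicate 1.

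Genes next to the pathway were compared by the same rule. Of 10 fatty acid targets of SREBP, 2 were higher in replicate 2 and 3 lower, with a median log2 ratio of 0.27. Among all tested genes 36.4% were higher and 27.8% lower, or 14.7% and 10.6% with the GC trend removed. By the mean of both libraries their most abundant members were Me1, malic enzyme, at 1751 nuclear TPM in replicate 2 and 3586 in replicate 1, and Scd1, a fatty acid desaturase, at 1018 in replicate 2 and 2065 in replicate 1. Both were lower in replicate 2 and neither was called with the GC trend removed, which gave 3 of 10 higher, 1 of them newly called, and 0 lower. The 2 called higher were Fads2, a fatty acid desaturase, at 1653 nuclear TPM in replicate 2 and 112 in replicate 1, and Fasn, fatty acid synthase, at 529 in replicate 2 and 11.2 in replicate 1. They were named after their values were seen. Of 10 genes that use isoprenoids for products other than sterols, 3 were higher and 3 lower (median -0.23), near the shares of all tested genes. Among them Fnta, a farnesyltransferase subunit, stood at 102 nuclear TPM in replicate 2 and 136 in replicate 1, and Nus1, a subunit of the dolichol-making prenyltransferase, at 48.7 in replicate 2 and 167 in replicate 1. With the trend removed 1 was higher and 0 lower.

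Of 6 genes of the LXR sterol sensors, their RXR partners and their targets, 4 were higher and 1 lower (median 3.79), against 36.4% higher and 27.8% lower among all tested genes and 91.6% higher among those of at least 55% GC, and 2 were higher with the trend removed. Abca1, a cholesterol exporter, stood at 148 nuclear TPM in replicate 2 and 298 in replicate 1, and Nr1h2, which encodes LXR beta, at 98.0 in replicate 2 and 2.92 in replicate 1. The LXR genes had a median GC content of 57.5%, the highest of these neighbouring lists.

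The steroid-making genes of the cortex served as the check of the tissue and as the outlet of the pathway's cholesterol. Hsd3b1, a steroid dehydrogenase, stood at 18061 nuclear TPM in replicate 2 and 16412 in replicate 1, and Star, which brings cholesterol into mitochondria, at 8744 in replicate 2 and 11161 in replicate 1. Of the 5 cortex genes, 2 were higher in replicate 2 and 0 lower, against 36.4% and 27.8% of all tested genes. The 5 markers of the medulla summed to 7288 nuclear TPM in replicate 2 and 1940 in replicate 1, those of adipocytes to 3232 in replicate 2 and 2252 in replicate 1, and those of skeletal muscle to 523 in replicate 2 and 63.3 in replicate 1. Those of macrophages summed to 277 in replicate 2 and 25.3 in replicate 1, and those of liver to 7.46 in replicate 2 and 2.06 in replicate 1. The 5 cortex genes summed to 56708 in replicate 2 and 40317 in replicate 1. Cyp21a1 (56.9% GC) stood at 14814 in replicate 2 and 554 in replicate 1. Cyp11a1 and Hsd3b1 also had higher levels in replicate 2, and Star and Cyp11b1 lower ones. Median GC content was 55.8% for medulla, 56.7% for macrophage and 47.7% for cortex genes. With the GC trend removed, median log2 ratios went from 4.29 to 1.68 (medulla), 3.91 to 0.99 (macrophage) and 4.88 to 3.17 (muscle). They went from 0.53 to 1.30 for adipocytes and from 0.11 to 0.72 for cortex. Of the liver markers Alb alone reached 20 counts over both libraries. The part of these sums in the members' ratios was not tested. Both libraries are labelled as the same biological sample, and whether differences in these sums between them go with cell content was not tested. Bulk tissue cannot tell cell number from RNA per cell.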

How the data were processed

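Expected counts, TPM, FPKM, posterior mean TPM scores with their interval bounds, and the percent share of each transcript within its gene were deposited by the authors for each library, named so per the file headers, on mm10 with GENCODE M4 per the deposited notes. Their aligner and counting tool were not given in the sources used here. The libraries form 1 group of 2 technical replicates, so no test between conditions or animals was possible. Rows were named, and GC content (length-weighted over transcripts) and biotypes taken, from GENCODE M21 on the same assembly, and copies were found with BLAST 2.17.0. Promoter windows came from RefSeq (GRCm38.p6).

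Expected counts, as deposited, were rounded and scaled with edgeR 4.0.16 TMM in R 4.3.3. DESeq2 1.42.0 size factors, total counts, nuclear totals, no low-count filter, a lower fold minimum, and removal of GC or length trends (lowess, span 0.3) were alternatives. Each gene was compared with an exact binomial test (scipy 1.17.1), because edgeR's quasi-likelihood test needs replicates of 2 groups. It was checked on counts simulated with counting error only, as the test assumes, so the check does not cover the GC trend of these libraries. The log2 ratio uses a prior count of 0.5. FPKM in the deposited tables served as an alternative for detection.

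The members and lists were chosen with earlier results of these data known. All 29 members were named, with the 2 of highest mean nuclear TPM in each neighbouring list shown. A further neighbouring list is not reported here. Intervals are exact (95%), and the floor for a count of 0 is 3 counts.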

Additional observations from a re-analysis of the deposited data

How the results depend on the processing

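The 11 higher calls ranged from 9 to 15 and the 7 lower calls from 0 to 11 over the alternatives. There were 11 higher and 7 lower calls with DESeq2 size factors and without the low-count filter. Lower calls were 1 with total counts, 4 with nuclear totals, 11 at the 1.5-fold minimum and 0 with any GC trend removed. Total counts moved the median of all genes to 1.24 on the log2 scale, nuclear totals to 0.39 and the length trend to -0.14, against 0.10 with TMM. The members' median was 1.06 with total counts, 0.21 with nuclear totals, 0.26 with the GC trend removed, 0.28 with GC and length and 0.36 with the weighted GC trend, against -0.07; the cause was not tested.

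The log2 ratios that changed sign took these values. With total counts they were 1.06 for Acat1, 0.99 for Sqle, 0.53 for Lbr, 0.58 for Nsdhl, 0.29 for Hsd17b7, 0.44 for Insig1, 0.40 for Insig2 and 0.78 for Mylip. With nuclear totals they were 0.21 for Acat1 and 0.13 for Sqle. With the GC trend removed they were 1.07 for Acat1, 0.039 for Hmgcs1, 0.017 for Idi1, 0.27 for Ggps1, 0.16 for Sqle, 0.50 for Lbr, 0.11 for Msmo1, 0.52 for Nsdhl, 0.066 for Hsd17b7, 0.22 for Sc5d and 0.10 for Insig2. With GC and length trends removed they were 1.14 for Acat1, 0.13 for Hmgcs1, 0.076 for Idi1, 0.26 for Ggps1, 0.19 for Sqle, 0.55 for Lbr, 0.025 for Msmo1, 0.48 for Nsdhl, 0.28 for Hsd17b7, 0.19 for Sc5d and 0.077 for Insig2. With the GC trend weighted by transcript abundance removed, an alternative added after seeing the data, they were 1.12 for Acat1, 0.029 for Hmgcs1, 0.26 for Ggps1, -0.56 for Lss, 0.83 for Lbr, 0.45 for Nsdhl, 0.54 for Hsd17b7, 0.36 for Sc5d, -0.0015 for Srebf2 and 0.30 for Insig2. With the length trend removed they were -0.11 for Acat2. Calls ended for 6 genes with total counts, 3 with nuclear totals, 1 (Ebp, 0.55) with the length trend removed and 10 with each removal of the GC trend.

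The median nuclear TPM of the 29 genes was 20.98 as deposited TPM and 69.47 over the 22 genes that reach 1 TPM in each library, and ran from 40.1 to 47.7 when 1 library was left out. The number of genes detected in both libraries was 16 to 27 at other minimums or units. The median share of the leading transcript was 97.6% and 99.5% when 1 library was left out, against 95.4%. With 1 library left no comparison between the libraries can be made. No paired analysis was possible because the labels give 1 group. The ratios of Mvk, Pmvk, Mvd, Tm7sf2, Srebf1 and Scap rest on at most 26 counts in replicate 1, although that library had more counts in all.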
